A study of Homo sapiens with 36 samples.

Results

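Transcript levels of 10 receptor tyrosine kinases that have been tied to melanoma phenotype and drug tolerance (AXL, EGFR, ERBB2, ERBB3, PDGFRA, PDGFRB, MET, IGF1R, FGFR1 and KIT) were followed across 3 BRAF-mutant human melanoma cell lines. The genes were picked by name, matched by Ensembl identifier, and were 10 of the 60656 genes quantified by RNA-Seq. The 36 libraries came from 1205Lu, WM793 and A375 cells, each with 4 treatments and 3 replicates per treatment. All cells carried a Tet repressor and a lentiviral, doxycycline-inducible NR2F1 cDNA, NR2F1 being an orphan nuclear receptor and transcription factor. According to the labels, cells were left without doxycycline (DOX) or given 100 ng/mL DOX for 24 hours, although the study's methods speak of DOX on that day for the cells as a whole, so brief early DOX in the groups without it cannot be told from these sources. All were then kept for 72 hours, with or without DOX, in either the solvent DMSO or a BRAF inhibitor plus a MEK inhibitor (BRAFi + MEKi: 1 µM PLX4720 with 35 nM PD0325901). The 4 groups of each line are called DMSO, DMSO + DOX, BRAFi + MEKi and BRAFi + MEKi + DOX below.

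NR2F1 came from a transgene, and no library analysed here received DOX without the NR2F1 construct, so DOX itself and NR2F1 cannot be told apart. The 1205Lu and WM793 cells were grown in a low-serum medium with insulin and the A375 cells in a medium with more serum, so line and medium cannot be told apart where A375 is compared with either. NR2F1 itself checked the DOX labels. Under BRAFi + MEKi it was higher with DOX in every line, from 2805 to 4575 normalized expression units up to 30839 to 35345 in 1205Lu, from 689 to 3690 up to 30421 to 50934 in WM793, and from 1223 to 1431 up to 14995 to 35683 in A375. With DMSO it was also higher with DOX without overlap, least so in 1205Lu (2182 to 6273 against 9155 to 20699 units, log2 1.93 ± 0.38, adjusted p = 0.41), where it did not pass the test over all genes. Each deposited value is a gene's estimated read count scaled between libraries, called normalized expression here, and these values summed to between 27027824 and 34621958 per library. The reads behind them, estimated by taking the commonest small value in each library as 1 read, ranged from about 6581000 in replicate 1 of the WM793 DMSO group to 60457000, with the next lowest library at 23142000. Of 10 melanocyte-lineage markers, 7, 7 and 8 averaged at least 10 units in 1205Lu, WM793 and A375, with MLANA and TYR below 10 in all 3 lines. Keratinocyte, endothelial and leukocyte markers summed to at most 261 units in any library, whereas 5 fibroblast genes summed to 2237 to 6651 in WM793, 298 to 1335 in A375 and 4.47 to 45.5 in 1205Lu. SOX10, a defining transcription factor of the melanocyte lineage, was high throughout, averaging 9182 ± 1580 (SD, n = 3) even in the DMSO group where it was lowest, that of 1205Lu.

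Receptor tyrosine kinases are membrane proteins that bind a growth factor outside the cell, pair up, and phosphorylate each other inside it, which recruits adaptor proteins and feeds both the RAS-RAF-MEK-ERK cascade and the PI3K-AKT-mTOR pathway. In melanomas driven by mutant BRAF the ERK cascade is switched on below the receptors, so the receptors are a known way for cells to keep signaling when BRAF and MEK are blocked. AXL, EGFR and PDGFRB are commonly linked to dedifferentiated, drug-tolerant melanoma cells, while ERBB3 and KIT are receptors of the neural crest and melanocyte lineage. Several of these receptors and their signaling inhibitors are themselves transcribed under the control of ERK.

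The promoters of 8 of the 10 genes were found in the RefSeq promoter set (GRCh38.p14), each running from 250 bases before to 50 bases after the start site that RefSeq uses for the gene, which for ERBB2, PDGFRA, PDGFRB and KIT is not the end of the GENCODE gene given further on; ERBB3 and FGFR1 were not matched. These windows were searched on both strands for AGGTCA, the half-site that many nuclear receptors recognize, for TGANTCA, a loose form of the site of AP-1 (the FOS and JUN factors downstream of ERK and JNK), whose usual form has C or G at the centre, and for CACGTG, an E-box of the kind MITF binds; the 3 motifs do not overlap. AGGTCA occurred in 0 of the 8 windows, against 13.9% of the 27305 promoters of the set. TGANTCA occurred in 2 of them, those of ERBB2 and PDGFRA, against 7.76% of all promoters, and CACGTG in that of MET, against 7.43%. The 3 promoters that held a match are shown because MET and ERBB2 responded to BRAFi + MEKi in all 3 lines and PDGFRA in 2 lines (below), with the matched bases in capitals (both TGANTCA matches lack the usual AP-1 centre) and everything printed 5′ to 3′ on the plus strand. Counted from the RefSeq start site, the matches begin at position -222 in ERBB2, at -32 in PDGFRA and at 4 in MET. A match of letters is a description of the sequence, not evidence of binding.
MET, chr7:116671946-116672245, plus strand: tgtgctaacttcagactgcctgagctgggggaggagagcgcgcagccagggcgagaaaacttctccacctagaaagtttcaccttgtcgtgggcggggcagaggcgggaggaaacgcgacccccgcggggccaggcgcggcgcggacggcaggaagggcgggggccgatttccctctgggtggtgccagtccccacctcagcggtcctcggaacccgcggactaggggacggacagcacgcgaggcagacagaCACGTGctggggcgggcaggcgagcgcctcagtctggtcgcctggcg
PDGFRA, chr4:54229043-54229342, plus strand: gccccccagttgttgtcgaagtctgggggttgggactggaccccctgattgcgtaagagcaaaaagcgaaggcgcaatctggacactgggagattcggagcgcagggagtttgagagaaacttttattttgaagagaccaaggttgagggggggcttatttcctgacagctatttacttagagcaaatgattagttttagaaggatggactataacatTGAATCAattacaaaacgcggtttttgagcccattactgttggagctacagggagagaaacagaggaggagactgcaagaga
ERBB2, chr17:39687844-39688143, plus strand: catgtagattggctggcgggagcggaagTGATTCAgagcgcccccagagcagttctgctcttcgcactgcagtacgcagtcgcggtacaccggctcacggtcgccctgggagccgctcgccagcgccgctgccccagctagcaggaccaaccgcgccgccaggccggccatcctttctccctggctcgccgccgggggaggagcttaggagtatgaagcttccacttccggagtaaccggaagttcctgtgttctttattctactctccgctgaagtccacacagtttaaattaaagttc

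The first question was how strongly each line transcribed the receptors before inhibition. Levels of different genes were compared per kilobase of merged exons. In untreated (DMSO) 1205Lu cells AXL was highest, at 1236 ± 242 units per kb (SD, n = 3), followed by PDGFRA at 595 ± 161 and FGFR1 at 334 ± 97.3. ERBB2, EGFR, IGF1R and MET followed at 154, 151, 121 and 117 units per kb, and neighbors in that order overlapped between replicates. ERBB3 and PDGFRB also overlapped, at 53.7 and 51.6 units per kb, and KIT was close to absent at 0.0497. WM793 cells had a different leading receptor. ERBB3 reached 5812 ± 617 units per kb there, with AXL next at 629 ± 201. From AXL down to PDGFRB (122 per kb) each receptor overlapped with the next in WM793, and MET (32.6 per kb) and KIT (0.0249 per kb) lay below them. In A375 the order was AXL (1748 ± 88.2 per kb), then ERBB3 (596 ± 96) overlapping with MET (549 ± 126), then ERBB2 (280.2 ± 10.8), IGF1R (219 ± 27.9) and PDGFRB (134 ± 14). EGFR (62.7) and FGFR1 (59.3) overlapped below these, PDGFRA was at 17.6 and KIT at 0.0829 units per kb. With the length of the main annotated transcript instead, a choice made after the data were seen, FGFR1 and PDGFRA changed places in 1205Lu, FGFR1 and IGF1R changed places in WM793 (ranks 4 and 6), and ERBB2 and MET changed places in A375, where FGFR1 also moved from rank 8 to rank 6, above PDGFRB and EGFR.

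Between lines, the same gene was compared directly in the DMSO libraries, with 6 of the 10 receptors differing between 1205Lu and WM793 (30.7% of all 26779 genes tested did), 8 between 1205Lu and A375 (46.8% of all genes) and 7 between WM793 and A375 (47.5%). Each line's DMSO libraries entered 2 of these comparisons. The study describes normalized values written per cell line, and whether the scaling was shared between lines is not stated. Levels of different lines may therefore differ in scale. Over all genes the median log2 difference was 0 for 1205Lu minus WM793, -0.12 for 1205Lu minus A375 and -0.18 for WM793 minus A375. ERBB3, a receptor with an impaired kinase that signals as a partner of ERBB2, spanned the widest range of the receptors. Its 3 DMSO libraries read 389, 626 and 871 units in 1205Lu, 5701, 7460 and 7792 in A375, and 60044, 70125 and 74041 in WM793, with no overlap between lines. On the log2(value + 1) scale the difference of 1205Lu from WM793 was -6.83 ± 0.28 (SE, adjusted p = 2.5e-18) and that from A375 -3.53 ± 0.28 (adjusted p = 5e-12). PDGFRA, the receptor of PDGF-AA and PDGF-CC, was instead low in one line only, with 104 to 272 units in A375 against 2260 to 4011 in WM793 and 4223 to 7295 in 1205Lu; A375 differed from both (log2 differences of 4.37 ± 0.42 for WM793 and 5.17 ± 0.42 for 1205Lu), while 1205Lu and WM793 did not pass the test (0.80 ± 0.42, adjusted p = 0.16). MET, the receptor of hepatocyte growth factor, was ordered A375 (3411 to 5014 units), 1205Lu (541 to 1291) and WM793 (187 to 305), and each of the 3 pairs differed (log2 differences of 1.78 ± 0.40 for 1205Lu minus WM793, -2.30 ± 0.40 for 1205Lu minus A375 and -4.08 ± 0.40 for WM793 minus A375).

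The remaining receptors differed less. AXL read 8677 to 9494 units in A375, 4932 to 7272 in 1205Lu and 2130 to 4174 in WM793, and WM793 was lower than both others (log2 differences of 1.01 ± 0.23 for 1205Lu minus WM793 and -1.53 ± 0.23 for WM793 minus A375), whereas the difference between 1205Lu and A375 missed the threshold (-0.52 ± 0.23, adjusted p = 0.067) but passed it in a fit of the compared libraries alone (adjusted p = 0.026) and after rescaling to a common total (-0.65, adjusted p = 0.016). FGFR1, the receptor of basic fibroblast growth factor, was highest in 1205Lu (4036 to 7382 units), intermediate in WM793 (2162 to 3052) and lowest in A375 (663 to 1582), with all 3 pairs past the threshold. EGFR was lower in A375 (807 to 1377 units) than in 1205Lu (1967 to 2766) and WM793 (2172 to 2538), by 1.30 ± 0.20 and 1.25 ± 0.20 log2 units. ERBB2, the ErbB receptor without a ligand of its own, was by contrast highest in A375, with log2 differences from it of -0.87 ± 0.16 for 1205Lu and -0.72 ± 0.16 for WM793. PDGFRB, the receptor of PDGF-BB, and IGF1R, the receptor of insulin-like growth factors, were both lower in 1205Lu than in WM793 and A375, with log2 differences of -1.25 ± 0.19 and -1.40 ± 0.19 for PDGFRB and of -0.83 ± 0.24 and -0.88 ± 0.24 for IGF1R. Without replicate 2 of the 1205Lu DMSO group the IGF1R difference from WM793 missed the threshold (adjusted p = 0.070). In A375, KIT read 0.984, 1.83 and 0 units, and it averaged under 1 unit in the DMSO groups of all 3 lines. All 10 receptors reached the minimum for testing, a mean of 1 unit in at least 1 group, in each line, KIT only through the BRAFi + MEKi + DOX group in 1205Lu and A375 and through both treated groups in WM793.

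**Figure D1:**
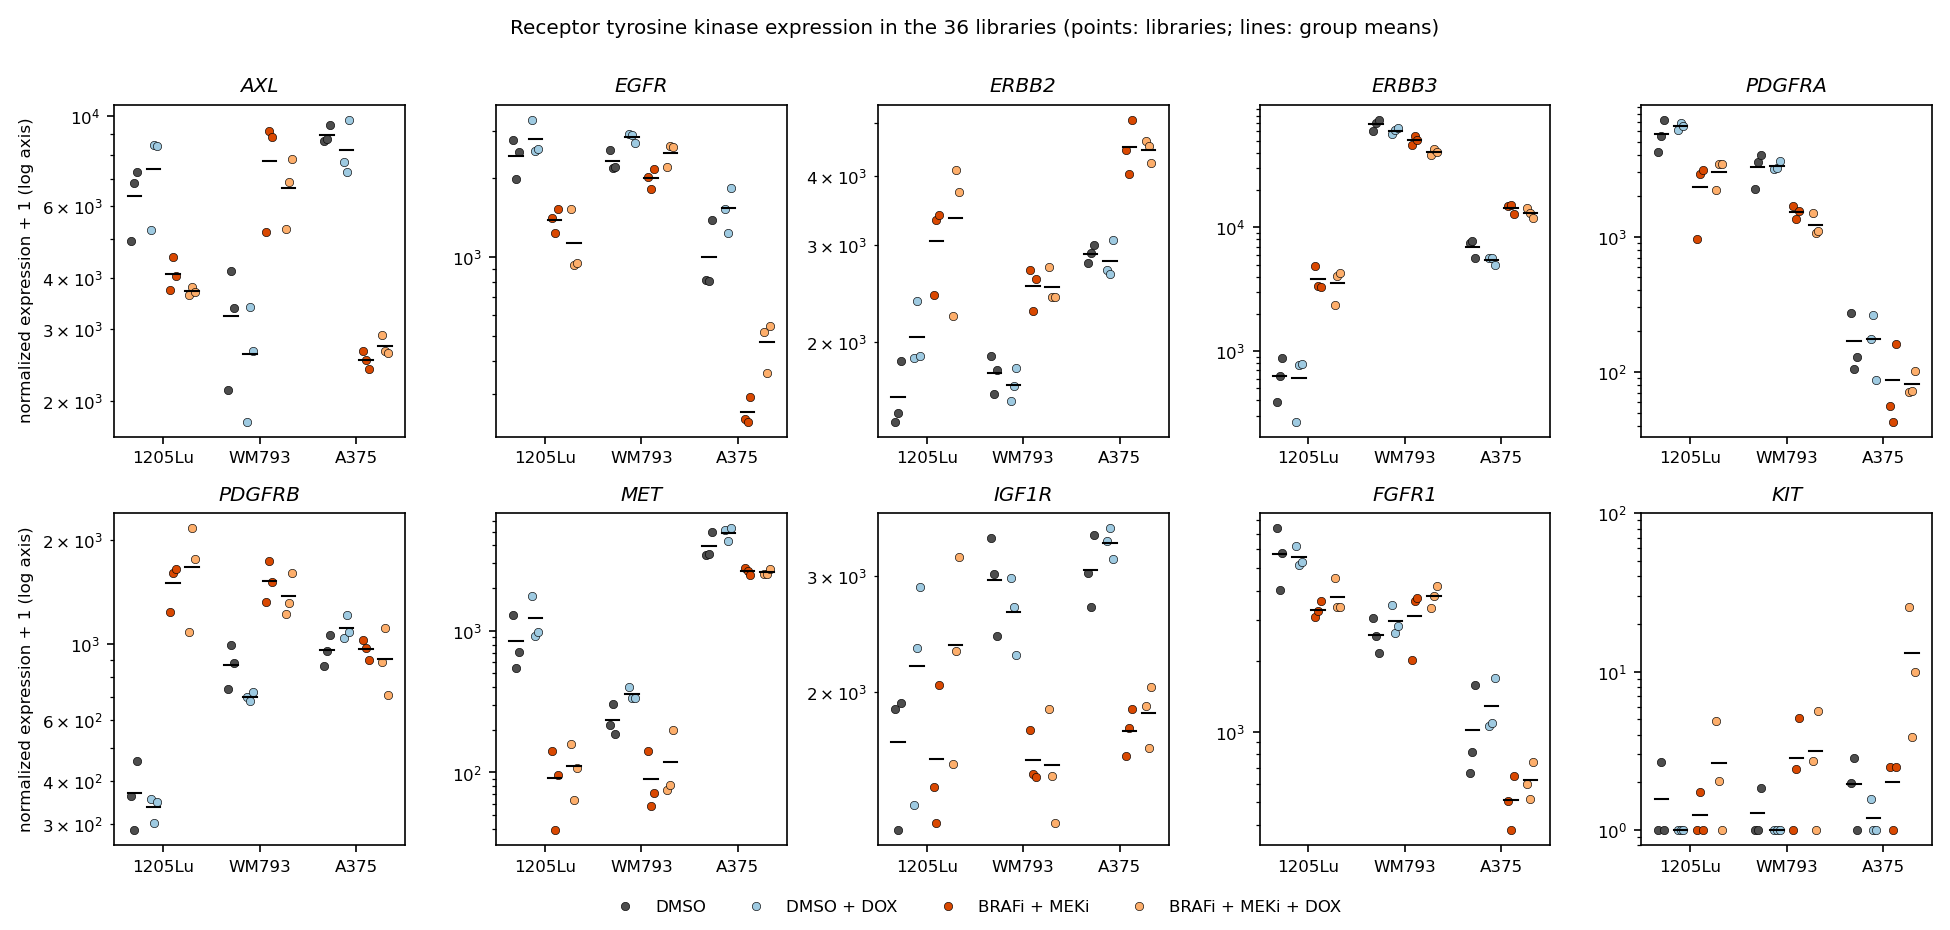
Normalized expression plus 1 (log axis) of the 10 receptors in all 36 libraries, with cell lines on the horizontal axis, points for single libraries colored by treatment, and short lines for group means of 3. ERBB3 spans from 269 units in 1205Lu to 74041 in WM793, AXL moves up with BRAFi + MEKi in WM793 and down in A375, MET moves down in all 3 lines, and KIT stays below 25 units.

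The main comparison asked what 72 hours of BRAFi + MEKi did to the receptors. ERBB2 transcripts rose and MET transcripts fell in all 3 lines, and these were the 2 receptors that changed the same way everywhere. AXL and ERBB3 moved in opposite directions in different lines. In total 8 of the 10 receptors changed in 1205Lu (3 up, 5 down), 7 in WM793 (3 up, 4 down) and 7 in A375 (2 up, 5 down), where 30.9%, 37.3% and 39.5% of all genes tested were called. The median log2 change of the 10 was -0.41, 0.01 and -0.68 in these lines, beside 0.11, 0.15 and 0.06 over all genes tested. Because whole cultures were sequenced, a smaller share of expressing cells and a lower level per cell cannot be told apart in any of these results. Rescaling the libraries to one common total raised the median of all genes by a further 0.18 log2 units in WM793 and 0.14 in A375, so changes of that size have no fixed direction there.

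MET fell the most of the 10 receptors in 1205Lu and WM793, and the least of the 5 that fell in A375. In 1205Lu it went from 1291, 541 and 711 units with DMSO to 140, 38.2 and 94.9 with BRAFi + MEKi, a log2 change of -3.29 ± 0.47 (SE, adjusted p = 0.00016, limma). WM793, where MET was low to begin with, went from 214, 305 and 187 units to 140, 57.4 and 70.2 (-1.47 ± 0.39, adjusted p = 0.0089). A375, the line with the most MET, went from 3411, 3467 and 5014 units to 2790, 2663 and 2493 (-0.56 ± 0.14, adjusted p = 0.0055). In each line all treated libraries lay below all DMSO libraries. A375 thus kept 2493 units or more under inhibition, above every DMSO library of the other 2 lines.

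Among the ErbB receptors, ERBB3 separated the lines. It rose in 1205Lu from 389, 626 and 871 units to 4908, 3346 and 3306, a 6.34-fold change (log2 2.66 ± 0.39, adjusted p = 0.0002). In A375 it went from 7460, 7792 and 5701 units to 14813, 15158 and 12777, or 2.05-fold (log2 1.04 ± 0.13, adjusted p = 2e-05). WM793, with far more ERBB3 at the outset, went the other way, from 60044, 70125 and 74041 units to 46573, 54940 and 51050 (-0.42 ± 0.12, adjusted p = 0.012). That fall lost significance when libraries were rescaled to a common total (-0.21, adjusted p = 0.15). Even after the rise, the highest 1205Lu library stayed below the lowest A375 DMSO library, and the treated A375 libraries stayed below all WM793 libraries.

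ERBB2 rose in each line. Its values went from 1434, 1489 and 1847 to 2432, 3330 and 3399 units in 1205Lu (0.93 ± 0.22, adjusted p = 0.0052). In WM793 they went from 1884, 1611 and 1777 to 2703, 2272 and 2606 (0.52 ± 0.11, adjusted p = 0.0019), and in A375 from 2777, 2902 and 2998 to 4453, 4037 and 5058 (0.64 ± 0.10, adjusted p = 0.00022). The groups did not overlap in any line, and differences between lines in the size of the rise, from -0.11 to 0.41 log2 units, did not pass the test (adjusted p = 0.26 to 0.77). EGFR fell from 2766, 1967 and 2493 to 1397, 1227 and 1517 units in 1205Lu (-0.79 ± 0.20, adjusted p = 0.0084) and from 814, 807 and 1377 to 241, 235 and 292 units in A375 (-1.92 ± 0.22, adjusted p = 1.5e-05). In WM793 the change was small and did not pass the test, from 2538, 2172 and 2194 to 2014, 1812 and 2161 units (-0.21 ± 0.11, 95% interval -0.45 to 0.04, adjusted p = 0.17).

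Taking EGFR, ERBB2 and ERBB3 per kilobase, the makeup of the ErbB transcripts of 1205Lu cells shifted with treatment. ERBB3 was 14.8% ± 4.56 (SD, n = 3) of their sum with DMSO and 46% ± 9.07 with BRAFi + MEKi, and EGFR went from 42.3% ± 6.88 to 12.2% ± 1.16, while ERBB2 stayed at 42.9% and 41.8%. In A375 EGFR went from 6.8% ± 2.77 to 0.966% ± 0.154 and ERBB3 from 63.2% ± 5.93 to 72.7% ± 4.08. WM793 ErbB transcripts were 94.8% ± 0.916 ERBB3 with DMSO and 92.1% ± 1.15 with treatment. With the main transcript's length the 1205Lu share of ERBB3 went from 15.7% to 45.7%.

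**Figure D2:**
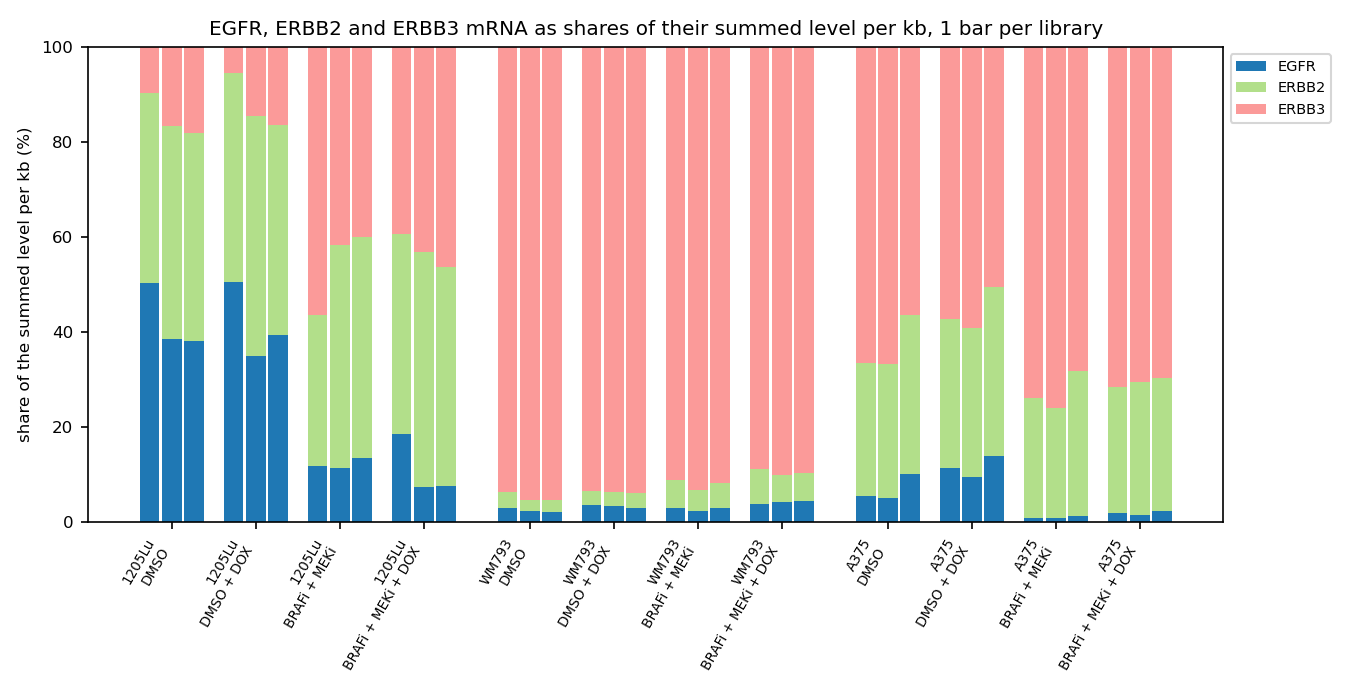
Share (%) of EGFR, ERBB2 and ERBB3 in their summed level per kb of merged exons, 1 stacked bar for each of the 36 libraries, grouped by line and treatment. In 1205Lu the ERBB3 share averages 14.8% with DMSO and 46% with BRAFi + MEKi, while WM793 averages 94.8% and 92.1% ERBB3 in the same groups.

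AXL, a receptor for GAS6, gave the clearest opposition between lines. In WM793 it rose from 2130, 4174 and 3386 units to 5180, 9165 and 8881, which is 2.41-fold (log2 1.27 ± 0.29, adjusted p = 0.0033). In A375 it fell from 8677, 8747 and 9494 to 2652, 2527 and 2405 units, or 3.55-fold (-1.83 ± 0.11, adjusted p = 4.4e-08). The 2 lines exchanged places, since every treated WM793 library exceeded every treated A375 library although every WM793 DMSO library lay below every A375 DMSO library. A smaller fall was measured in 1205Lu, from 4932, 6833 and 7272 to 3740, 4500 and 4056 units (-0.61 ± 0.19, adjusted p = 0.026). It no longer passed after leaving out DMSO replicate 2 or 3 or BRAFi + MEKi replicate 1 or 3 (adjusted p = 0.069 to 0.10).

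The 2 PDGF receptors parted from each other. PDGFRB rose from 361, 287 and 456 units to 1239, 1605 and 1651 in 1205Lu, a 4.1-fold change (log2 2.04 ± 0.24, adjusted p = 3.7e-05), and from 737, 993 and 878 to 1323, 1741 and 1508 in WM793 (0.81 ± 0.15, adjusted p = 0.00066). A375 values of PDGFRB stayed between 863 and 1062 units in both groups (0.01 ± 0.15, 95% interval -0.32 to 0.34). PDGFRA fell from 4223, 5538 and 7295 units to 966, 2901 and 3079 in 1205Lu (-1.43 ± 0.35, adjusted p = 0.0072) and from 2260, 3553 and 4011 to 1670, 1339 and 1541 in WM793 (-1.07 ± 0.19, adjusted p = 0.00061). In A375 the PDGFRA groups overlapped, at 272, 104 and 128 against 54.6, 42 and 160 units (-1.08 ± 0.51, adjusted p = 0.11), and leaving out BRAFi + MEKi replicate 3 there gave -1.66 (adjusted p = 0.015). Both PDGF receptors are also fibroblast genes. In 1205Lu, where both changed, none of the 5 fibroblast markers was called with treatment (0 at an unadjusted p under 0.05). Of these markers 4 averaged below 10 units there, so the absence of calls says little. In WM793 1 of 5 rose, COL1A1 (log2 2.55 ± 0.50), where 37.3% of all genes were called. Whether fibroblast gene expression had a part in the PDGF receptor changes was not tested.

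IGF1R fell in 2 lines, from 3415, 3015 and 2431 to 1750, 1504 and 1484 units in WM793 (-0.89 ± 0.16, adjusted p = 0.00073) and from 3025, 2685 and 3461 to 1597, 1764 and 1882 in A375 (-0.80 ± 0.12, adjusted p = 0.00011). The 1205Lu groups overlapped (1235 to 1923 against 1268 to 2047 units, -0.09 ± 0.31). FGFR1 fell in 1205Lu, from 7382, 4036 and 5794 to 3075, 3275 and 3606 units (-0.75 ± 0.20, adjusted p = 0.010), and in A375, from 663, 817 and 1582 to 506, 379 and 644 (-0.93 ± 0.29, adjusted p = 0.022). The A375 call rested on few libraries, since it was lost without DMSO replicate 3 or BRAFi + MEKi replicate 1 or 2 (adjusted p = 0.057 to 0.11). In WM793 FGFR1 read 3052, 2548 and 2162 against 2029, 3607 and 3713 units and did not pass (0.23 ± 0.21, adjusted p = 0.41), but it did without BRAFi + MEKi replicate 1 (0.51, adjusted p = 0.024). KIT stayed at 0 to 4.09 units in the DMSO and BRAFi + MEKi groups of all 3 lines.

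**Figure D3:**
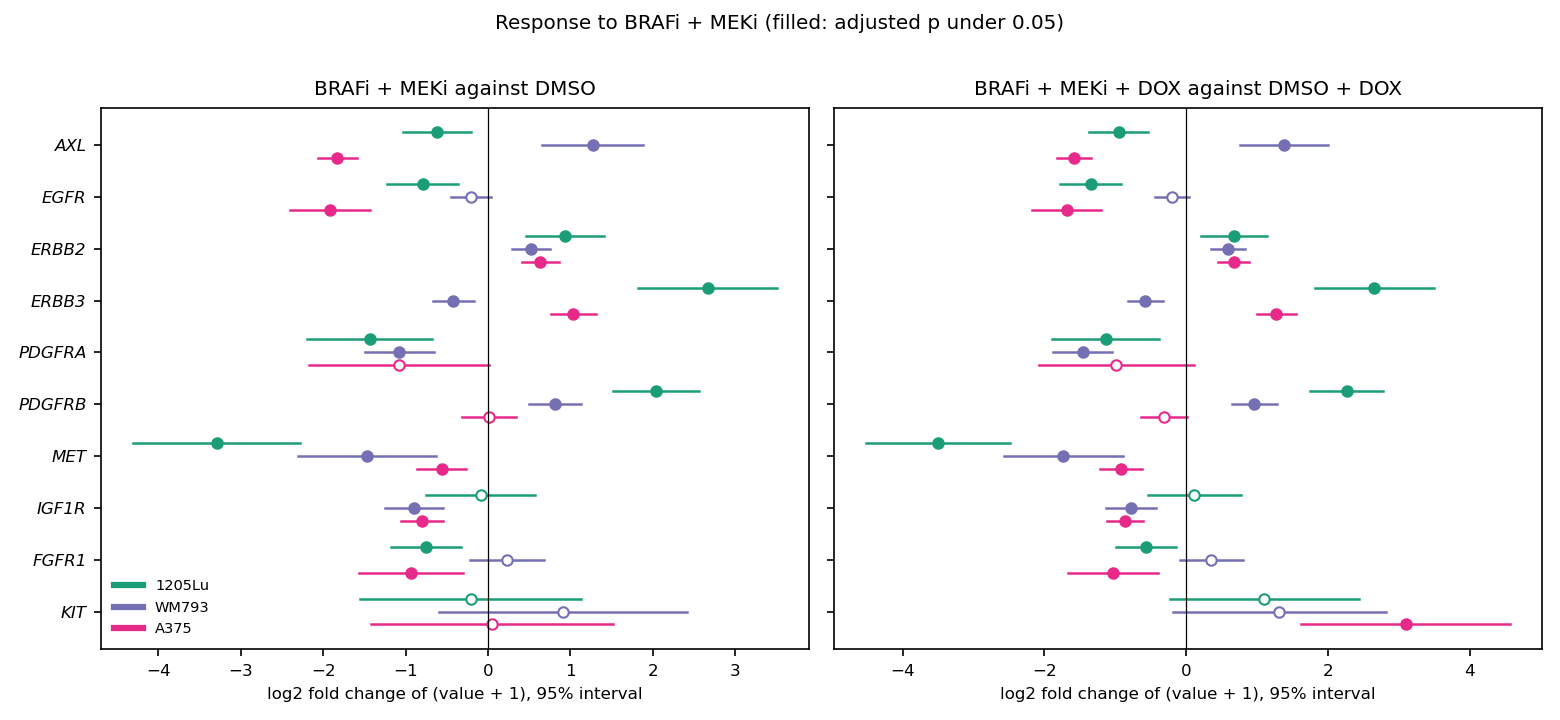
Log2 fold change of each receptor with BRAFi + MEKi (horizontal axis, log2 of value + 1, bars for 95% intervals) in 1205Lu, WM793 and A375, without DOX on the left and with DOX on the right, filled points having an adjusted p under 0.05. ERBB2 lies above 0 and MET below 0 in all 3 lines, whereas AXL and ERBB3 of WM793 lie on the opposite side from those of A375; the filled KIT point of A375 rests on the single group where KIT is above 1 unit on average.

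Whether the lines differed in their response was tested directly. The BRAFi + MEKi response of 4 receptors differed between 1205Lu and WM793 (14.5% of all genes did), that of 5 between 1205Lu and A375 (14.7%) and that of 5 between WM793 and A375 (22.8%). AXL and ERBB3 differed in all 3 pairs. PDGFRB did too, but its difference for WM793 minus A375 (0.80, adjusted p = 0.034) passed in only 5 of 12 leave-one-out fits (adjusted p up to 0.099). The AXL response of WM793 exceeded that of A375 by 3.10 ± 0.33 log2 units (adjusted p = 4.3e-08) and was also above that of 1205Lu (1205Lu minus WM793, -1.88 ± 0.33, adjusted p = 0.00015). The ERBB3 response of 1205Lu exceeded that of WM793 by 3.08 ± 0.39 (adjusted p = 2.4e-06) and that of A375 by 1.63 ± 0.39 (adjusted p = 0.0046). For PDGFRB, 1205Lu responded more than A375 by 2.03 ± 0.28 log2 units (adjusted p = 7.5e-06) and more than WM793 by 1.23 ± 0.28 (adjusted p = 0.0024). The fall of MET in 1205Lu was larger than in A375 (-2.73 ± 0.57, adjusted p = 0.0012), and EGFR fell more in A375 than in 1205Lu (1.13 ± 0.28, adjusted p = 0.0061) or WM793 (1.71 ± 0.28, adjusted p = 3.4e-05). PDGFRA, IGF1R and ERBB2 passed the test in 0 of the 3 pairs, with 95% intervals for PDGFRA from -1.58 to 1.23 that leave room for sizeable differences. All 3 pairs share libraries, since each line enters 2 of them.

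**Figure D4:**
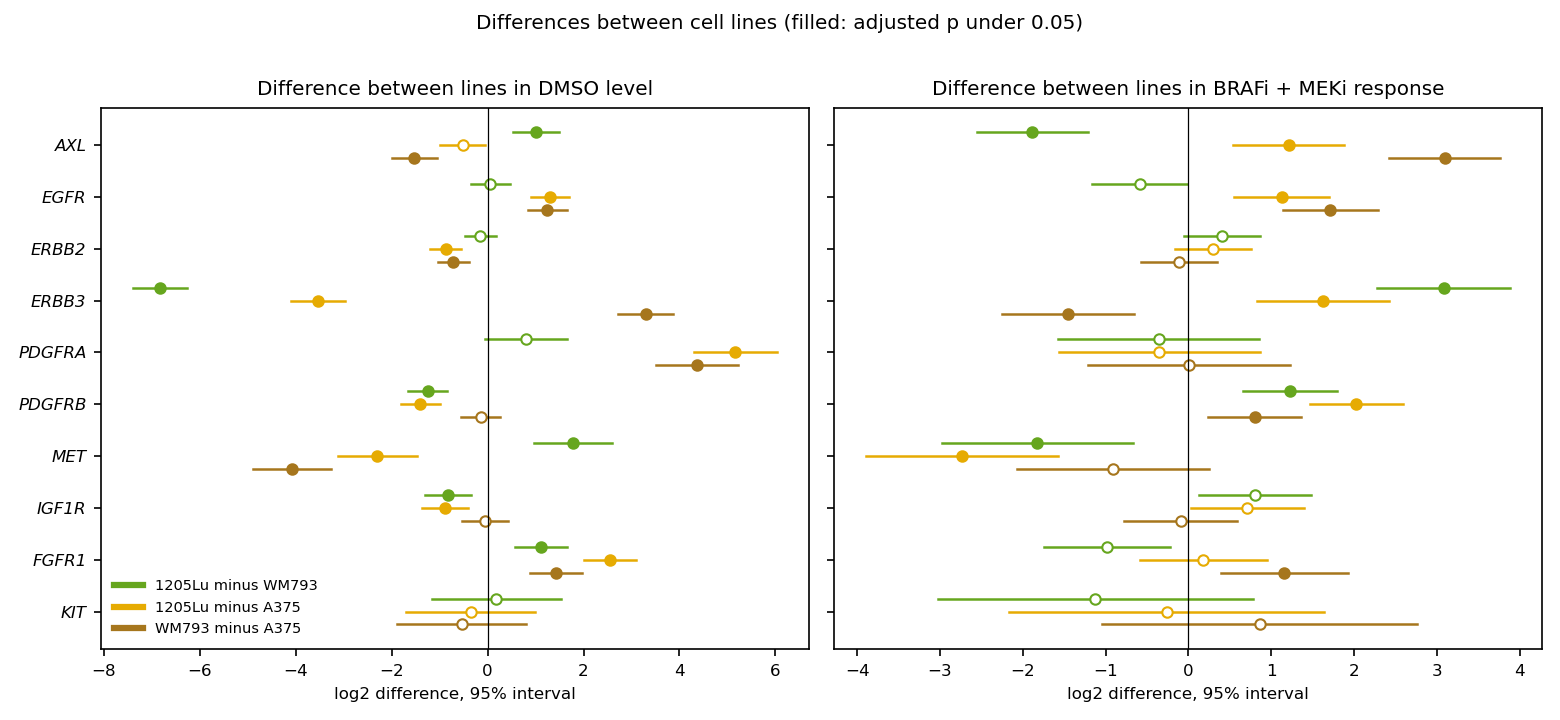
Log2 difference between pairs of lines (horizontal axis, bars for 95% intervals, filled points for an adjusted p under 0.05) in the DMSO level on the left and in the BRAFi + MEKi response on the right. For ERBB3, 1205Lu minus WM793 is -6.83 log2 units in level and 3.08 in response, and the AXL response of WM793 exceeds that of A375 by 3.10 units.

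The same inhibitors were also tested in cells with induced NR2F1, in separate libraries. BRAFi + MEKi + DOX against DMSO + DOX gave 8, 7 and 7 called receptors in 1205Lu, WM793 and A375 with KIT left aside (28.2%, 31.7% and 31% of all genes). All 22 receptor and line combinations called without DOX were called with DOX in the same direction. MET fell from 1770, 925 and 976 units to 159, 62.8 and 107 in 1205Lu (-3.50 ± 0.47), from 398, 337 and 337 to 74.8, 80.5 and 199 in WM793 (-1.74 ± 0.39), and from 5173, 4296 and 5289 to 2511, 2517 and 2739 in A375 (-0.92 ± 0.14). ERBB3 rose from 269, 769 and 790 to 2368, 4045 and 4256 units in 1205Lu (2.65 ± 0.39). In WM793 ERBB3 fell from 57083, 61162 and 63149 to 38071, 43180 and 40414 units (-0.58 ± 0.12, adjusted p = 0.0018). As without DOX, the treated and DMSO groups did not overlap for MET in any line or for ERBB3 in these 2.

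AXL again rose in WM793 (1784, 3409 and 2647 to 5274, 6893 and 7814 units, 1.38 ± 0.29) and fell in A375 (7703, 7255 and 9767 to 2908, 2650 and 2620 units, -1.59 ± 0.11). PDGFRB rose from between 301 and 354 units to 1081, 2162 and 1762 in 1205Lu (2.26 ± 0.24). Of the 1205Lu calls, those of FGFR1 (-0.57 ± 0.20, adjusted p = 0.043), PDGFRA (-1.14 ± 0.35, adjusted p = 0.028) and ERBB2 (0.68 ± 0.22, adjusted p = 0.032) did not survive leaving out single libraries, each being lost in 4 or 5 of the leave-one-out fits with adjusted p up to 0.14. In A375 the FGFR1 call (-1.03, adjusted p = 0.016) was lost without DMSO + DOX replicate 3 (adjusted p = 0.073) or BRAFi + MEKi + DOX replicate 2 (adjusted p = 0.062). KIT of A375 read 0.575, 0 and 0 units with DMSO + DOX and 24.5, 2.85 and 8.99 with BRAFi + MEKi + DOX. KIT entered the A375 tests only through the latter group, the one where it is high, so these values are a description and no test is read from them.

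The study's central comparison was between BRAFi + MEKi with and without induced NR2F1. In this comparison limma called 0 receptors, KIT aside, for every line, while 0.334%, 0.204% and 1.52% of all genes were called in 1205Lu, WM793 and A375. KIT aside, at an unadjusted p under 0.05 there were 0, 2 (ERBB3 and EGFR) and 1 receptors (EGFR). Over all genes, 2153 of 22144, 1754 of 22074 and 2585 of 24370 passed that unadjusted cut in 1205Lu, WM793 and A375. With DMSO, DOX gave 0 called receptors in each line (0.00903%, 0.512% and 0.0492% of all genes). At an unadjusted p under 0.05 there were 0, 1 and 3 receptors, beside 1516 of 22144, 2189 of 22074 and 1937 of 24370 genes. The 2 DOX effects of a line also differed for 0 receptors (0%, 0% and 0.46% of all genes). At an unadjusted p under 0.05 there were 0 receptors other than KIT, beside 1267 of 22144, 1262 of 22074 and 1766 of 24370 genes. A missed threshold does not show equal levels, and the intervals say how large an effect could have gone unseen. For AXL under BRAFi + MEKi the 95% intervals were -0.55 to 0.28 log2 units in 1205Lu, -0.81 to 0.43 in WM793 and -0.13 to 0.35 in A375. ERBB2 was bounded most narrowly, at -0.24 to 0.23 in WM793 and -0.23 to 0.21 in A375, and MET of 1205Lu was bounded loosely, at -0.66 to 1.36.

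EGFR came closest to a DOX effect. With BRAFi + MEKi, its A375 libraries read 241, 235 and 292 units without DOX and 518, 361 and 544 with DOX, so that the groups did not overlap (0.87 ± 0.22, adjusted p = 0.088). Leaving out BRAFi + MEKi + DOX replicate 2 gave 1.05 with an adjusted p of 0.043. WM793 values went from 2014, 1812 and 2161 to 2192, 2645 and 2624 units (0.32 ± 0.11, adjusted p = 0.44), also without overlap. Groups of 3 libraries can separate without any effect, and the share of all genes that did so was not counted. In 1205Lu EGFR read 1397, 1227 and 1517 against 1511, 925 and 943 units (-0.33 ± 0.20, adjusted p = 0.66), and the difference between the 1205Lu and A375 effects was -1.20 ± 0.28 (adjusted p = 0.065). With DMSO, EGFR read 814, 807 and 1377 against 1521, 1228 and 1829 units in A375 (0.64 ± 0.22, adjusted p = 0.51) and 2538, 2172 and 2194 against 2933, 2910 and 2703 in WM793 (0.31 ± 0.11, adjusted p = 0.35). Between lines, the DOX effect under BRAFi + MEKi differed for 0 receptors in each of the 3 pairs (0.138% of all genes where 1205Lu met WM793, 0.179% where it met A375 and 0.881% where the latter 2 met). At an unadjusted p under 0.05 there was EGFR in both pairs with 1205Lu and, KIT aside, 0 receptors for WM793 minus A375. Of all 26779 genes, 1905 (1205Lu minus WM793), 2161 (1205Lu minus A375) and 2239 (WM793 minus A375) passed that unadjusted cut.

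MET with DMSO was higher with DOX in WM793, at 337, 337 and 398 units against 187 to 305, without overlap, but did not pass the test (0.63 ± 0.39, adjusted p = 0.65). Also with DMSO and without overlap, ERBB3 was lower with DOX in A375 (4939 to 5683 against 5701 to 7792 units). PDGFRB was likewise lower in WM793 (682 to 722 against 737 to 993) and ERBB2 higher in 1205Lu (1872 to 2374 against 1434 to 1847), and none of these passed the test. The share of all genes without overlap between DOX groups was not counted, so the separations in this paragraph are descriptions only. The MET estimate of 1205Lu with DMSO (0.56 ± 0.47) and the IGF1R estimate of 1205Lu under BRAFi + MEKi (0.54 ± 0.31) came from overlapping groups. KIT of A375 read 1.49, 0 and 1.51 units with BRAFi + MEKi and 24.5, 2.85 and 8.99 after adding DOX, again a description only. ERBB3 of WM793 read 46573, 54940 and 51050 units without and 38071, 43180 and 40414 with DOX under BRAFi + MEKi, without overlap (-0.33 ± 0.12, adjusted p = 0.44). AXL overlapped between DOX groups in every line and both backgrounds, for instance 2405 to 2652 against 2620 to 2908 units in A375 under BRAFi + MEKi. NR2F1 in those A375 libraries rose 17.6-fold (log2 4.14 ± 0.27, adjusted p = 6.7e-06).

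**Figure D5:**
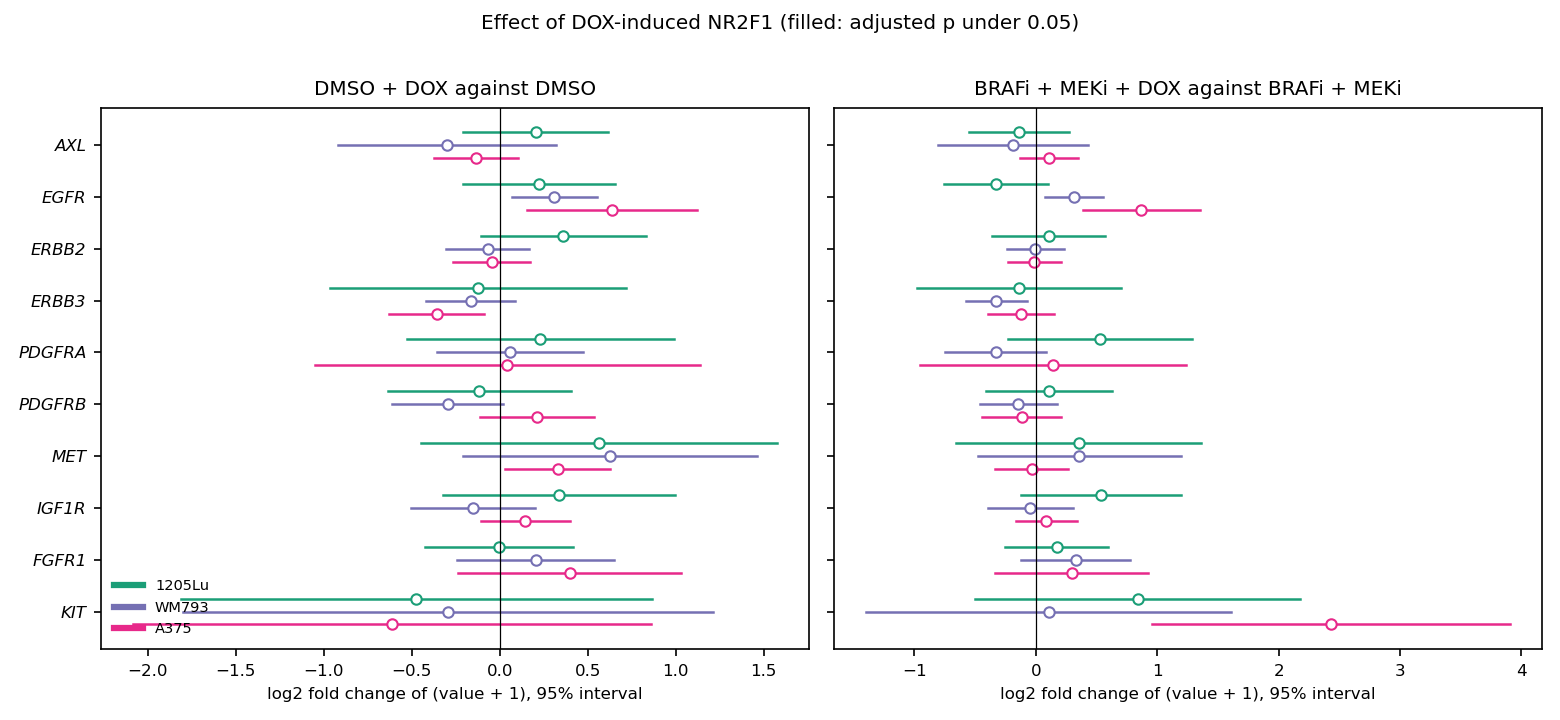
Log2 fold change of each receptor with DOX-induced NR2F1 (horizontal axis, log2 of value + 1, bars for 95% intervals) in 1205Lu, WM793 and A375, with DMSO on the left and with BRAFi + MEKi on the right. No point is filled, a filled point having an adjusted p under 0.05 (KIT is drawn but not read as a test), and the EGFR estimate of A375 under BRAFi + MEKi (0.87) has an interval above 0.

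Genes of the pathway around the receptors were counted for BRAFi + MEKi against DMSO. Here and in the next 2 paragraphs a gene is named for lines where it was among the 4 largest called changes of its list. It may also have been called in a line not named. Of 18 ERK output genes, 15 fell in 1205Lu, 16 in WM793 and 17 in A375 with BRAFi + MEKi, and 0 rose. SPRY4, a feedback inhibitor of receptor signaling, fell everywhere (log2 changes of -5.75 ± 0.30, -5.90 ± 0.29 and -4.49 ± 0.26 in 1205Lu, WM793 and A375). The median change of the list was -2.56, -1.77 and -2.53 log2 units. Adaptors and negative regulators moved both ways, with 6 up and 6 down of 25 tested in 1205Lu, 10 up and 5 down in WM793 and 10 up and 6 down in A375. Beside both lists, 30.9%, 37.3% and 39.5% of all genes tested were called in 1205Lu, WM793 and A375. ERRFI1, an inhibitor that binds the ErbB kinases, fell in each line (-3.68 ± 0.20, -3.63 ± 0.18 and -2.45 ± 0.17). GAB1, an adaptor that links MET and EGFR to PI3K, rose by 2.12 ± 0.31 in 1205Lu and 2.75 ± 0.19 in A375, and IRS2, the adaptor of insulin and IGF1 receptors, rose by 2.02 ± 0.14 in WM793. IGFBP3, which binds insulin-like growth factors outside the cell, fell by 2.20 ± 0.33 in WM793 and by 3.88 ± 0.22 in A375.

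Ligands for the 10 receptors followed no single direction. Of 27 listed, 3 rose and 5 fell among 21 tested in 1205Lu, 9 rose and 2 fell among 24 in WM793, and 7 rose and 8 fell among 27 in A375. PDGFB, which encodes the ligand of PDGFRB, rose in WM793 from 3.54 to 137 units across the DMSO libraries to 1571 to 2731 (log2 5.85 ± 0.93, adjusted p = 0.00023). In A375 PDGFB fell from 208 to 245 units to 12.6 to 45.2 (-3.28 ± 0.39, adjusted p = 1.8e-05), and its response differed between the 2 lines by 9.12 ± 1.25. AREG, an EGFR ligand, fell by 2.48 ± 0.58 in WM793 and by 4.89 ± 0.47 in A375, and in 1205Lu its mean was under 3 units in all 4 groups. KITLG, the ligand of KIT, and PDGFC, a ligand of PDGFRA, fell by 2.27 ± 0.49 and 3.09 ± 0.31 in 1205Lu, while PROS1 rose by 2.00 ± 0.34. PROS1 encodes protein S and was listed as a ligand of the AXL family rather than of AXL itself.

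Receptor tyrosine kinases outside the 10 were changed by BRAFi + MEKi in 16 of 38 cases tested in 1205Lu (7 up, 9 down), 14 of 34 in WM793 (5 up, 9 down) and 22 of 39 in A375 (9 up, 13 down). These are 42.1%, 41.2% and 56.4% of the list, beside 30.9%, 37.3% and 39.5% of all genes, and the ligands likewise stood at 38.1%, 45.8% and 55.6%. NTRK2, the receptor of brain-derived neurotrophic factor, rose in each line, by 3.55 ± 0.46, 3.63 ± 0.46 and 2.63 ± 0.51 log2 units. FLT1, a receptor of vascular endothelial growth factor, fell by 3.72 ± 0.13 in WM793, and MERTK, of the AXL family, rose by 3.10 ± 0.54 in A375. Of 18 transcription factors known to act on receptor genes, 9 rose and 2 fell in 1205Lu, 6 rose and 3 fell in WM793 and 9 rose and 4 fell in A375. FOXD3, a factor of the neural crest, rose by 2.28 ± 0.24, 4.49 ± 0.37 and 2.01 ± 0.17. JUN rose by 4.0 ± 0.47 in WM793 and 4.25 ± 0.32 in A375, and FOSL1, a partner of JUN in AP-1, changed by -2.77 ± 0.34 in 1205Lu and -5.36 ± 0.19 in A375. Among melanocyte markers, 5 of 8 tested rose in 1205Lu, 5 rose and 1 fell of 8 in WM793, and 6 of 9 rose in A375, led by the pigment enzyme DCT (6.44 ± 1.28, 8.16 ± 0.61 and 7.58 ± 1.36). Whether these marker changes had a part in the receptor changes was not tested.

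After each line's mean was subtracted, the receptors also varied with one another over the 36 libraries. These correlations describe libraries that share treatments and lines. MET ran opposite to PDGFRB (Pearson r = -0.87), ERBB2 (r = -0.79) and ERBB3 (r = -0.76), and EGFR ran with FGFR1 (r = 0.84) and opposite to ERBB3 (r = -0.73). For AXL and MET the value over all 36 libraries was near 0 (r = 0.13). With BRAFi + MEKi both fell in A375 and 1205Lu, whereas in WM793 AXL rose and MET fell. Correlations within single lines were not computed. Among 12555 genes averaging at least 100 units, the pattern most like that of AXL was that of PTPRF, a receptor tyrosine phosphatase (r = 0.93), followed by ELF4 and LOXL2. For ERBB3 the most similar were ATOH8 (r = 0.93), TCF4 and GSTA4. EGFR was most like RTN4 (r = 0.91), ERBB2 like TNS3 (r = 0.94), MET like RASSF3 (r = 0.91), PDGFRB like TNFRSF1A (r = 0.92), PDGFRA like ILF2 (r = 0.87), IGF1R like GTF2H3 (r = 0.84) and FGFR1 like EGFR.

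On GRCh38 (GENCODE 44) AXL lies at chr19:41219223-41261766, EGFR at chr7:55019017-55211628 and MET at chr7:116672196-116798377. ERBB2 lies at chr17:39687914-39730426 and ERBB3 at chr12:56076799-56103505. PDGFRA (chr4:54229280-54298245) and KIT (chr4:54657267-54740783) both lie on chromosome 4, and KIT averaged under 1 unit in the DMSO groups. PDGFRB lies at chr5:150113839-150155872 and IGF1R at chr15:98648539-98964530. The library kit did not mark strand, so reads from EGFR and its antisense EGFR-AS1, and from ERBB2 and the overlapping PGAP3 and MIEN1, cannot be told apart where the genes overlap. Annotated genes also overlap FGFR1 (LETM2 among them), IGF1R (SYNM-AS1 among them), AXL, ERBB3 and PDGFRA, with the same limit.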

How the data were processed

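RNA-Seq of 36 libraries (3 lines, 4 treatments, 3 replicates) was analysed. The deposited signal per gene is a fractional normalized expression value: per the study's methods the authors aligned reads with STAR to GRCh38, estimated gene counts with RSEM and scaled them with DESeq2. Whole reads could not be recovered (3.63% to 34.9% of values under 50 lay within 0.01 of a whole multiple of the commonest small value), so no count model was used. Of 60656 identifiers, 60401 matched a symbol.

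Values were tested as log2(value + 1) with limma 3.58.1 (moderated test with trend, R 4.3.3). Genes averaging at least 1 in 1 group entered, with 1 fit per line (12 libraries) and 1 fit of all 36 for differences between lines. P-values were adjusted by Benjamini-Hochberg over all genes tested, and an adjusted p under 0.05 counts as a call. The scripts were tested on simulated data. Named are the 10 receptors, NR2F1, and from each list up to 4 called genes with the largest change, averaging at least 10 in 1 group. The receptors, lists and tests were chosen with earlier results of these data known, and some other genes (such as SOX10) were named after seeing their values. Alternatives were a pseudocount of 0.1, no filter, only the libraries compared, a replicate block, a common library total, and leaving out each library. The study describes its replicates as independent experiments; p-values measure the spread between these samples.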

Additional observations from a re-analysis of the deposited data

Results flagged for a closer look

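A test of the difference itself showed that 14 responses to BRAFi + MEKi differed between lines, and these are given as log2 differences with the adjusted p from limma. For 1205Lu minus WM793 they were ERBB3 3.08 (adjusted p = 2.4e-06), MET -1.83 (0.027), PDGFRB 1.23 (0.0024) and AXL -1.88 (0.00015). For 1205Lu minus A375 they were ERBB3 1.63 (0.0046), MET -2.73 (0.0012), PDGFRB 2.03 (7.5e-06), EGFR 1.13 (0.0061) and AXL 1.21 (0.011). For WM793 minus A375 they were ERBB3 -1.46 (0.0068), FGFR1 1.16 (0.023), PDGFRB 0.80 (0.034), EGFR 1.71 (3.4e-05) and AXL 3.10 (4.3e-08). Of these, the MET difference between 1205Lu and WM793 and the FGFR1 and PDGFRB differences between WM793 and A375 were lost without single libraries, among them WM793 DMSO replicate 1, the shallowest library, for MET (adjusted p = 0.054) and PDGFRB (0.099). The other 11 passed in every leave-one-out fit. In the pairs with A375, lines and growth media cannot be told apart.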

How the results depend on the processing

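The receptor calls with BRAFi + MEKi (22) ranged from 21 to 23 over the fits that each left out 1 library, those with DOX (22 with KIT set aside) from 19 to 22, the differences between lines with DMSO (21) from 20 to 21, and the differences in response between lines (14) from 12 to 15. The DOX calls under BRAFi + MEKi (0) ranged from 0 to 1, EGFR of A375 without BRAFi + MEKi + DOX replicate 2 (2 if KIT, not read as a test, is counted), and the differences in DOX effect between lines (0) from 0 to 1. A replicate block added 7 calls and lost 0. With it, 1 receptor was called for DOX under BRAFi + MEKi, EGFR in A375 (adjusted p = 0.0050), and 1 for a difference in DOX effect between lines, EGFR of 1205Lu against A375 (adjusted p = 0.0032). The other 5 were the responses of FGFR1 (-0.98, adjusted p = 0.019), IGF1R (0.80, adjusted p = 0.019) and EGFR (-0.59, adjusted p = 0.032) for 1205Lu minus WM793, that of IGF1R for 1205Lu minus A375 (0.71, adjusted p = 0.037) and the DMSO level of AXL for 1205Lu minus A375 (adjusted p = 0.0012). The replicate numbers were not taken as pairs, since correlations of same-numbered libraries went down to 0.0037 and were over 0.1 in 7, 5 and 3 of 12 comparisons in 1205Lu, WM793 and A375. All 3 were over 0.1 for DOX under BRAFi + MEKi in 1205Lu and WM793, where the block changed no receptor call, but not in A375. Fitting the compared libraries alone lost ERBB2 of 1205Lu with DOX (adjusted p = 0.061), the MET response of 1205Lu minus WM793 (0.096) and the FGFR1 response of WM793 minus A375 (0.081), and gained the DMSO levels of PDGFRA for 1205Lu minus WM793 (0.042) and AXL for 1205Lu minus A375. Rescaling to a common total lost FGFR1 of 1205Lu with DOX (adjusted p = 0.12; without a filter on low values, 0.055) and ERBB3 of WM793, and gained the AXL level and the FGFR1 response of 1205Lu minus WM793 (-1.12, adjusted p = 0.038). The DMSO + DOX calls and those for a difference between both DOX effects stayed at 0 throughout. A pseudocount of 0.1 changed 0 of 240 receptor tests, and no called change reversed. With 3 libraries a group, small DOX effects were not detectable, and KIT is at the limit of depth.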

Other observations

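Around the receptors, a few pathway genes passed the test for DOX under BRAFi + MEKi. KDR, a receptor of vascular endothelial growth factor, was higher with DOX in 1205Lu (log2 2.39 ± 0.45, adjusted p = 0.045, limma) and FLT1 in WM793 (0.73 ± 0.13, adjusted p = 0.048). In A375 FGFR4 fell by 1.17 ± 0.24 (adjusted p = 0.021). The ligand genes PDGFB (1.73 ± 0.39) and PDGFC (0.89 ± 0.17) rose there and HBEGF fell by 0.92 ± 0.21, as 3 of 27 ligands tested. Of all genes, 0.334%, 0.204% and 1.52% were called for DOX under BRAFi + MEKi in 1205Lu, WM793 and A375. IRS1, an adaptor of insulin-like signaling (1.09 ± 0.22), and IGFBP3 (0.94 ± 0.22) rose in A375 as well. PDGFB was also the listed ligand for which the DOX effect in A375 differed between BRAFi + MEKi and DMSO (2.81 ± 0.55, adjusted p = 0.044).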
